A study of Mus musculus with 7 samples.

Results

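Endothelial cells of NSCG mouse brain tumours were picked out of 7 single-cell libraries by 4 genes that mark the cell layer lining blood vessels. These were Cldn5, a tight junction protein, Pecam1 and Cdh5, adhesion proteins between endothelial cells, and Flt1, a receptor for VEGF. A barcode tags the RNA of 1 droplet, and those kept carried 1000 or more UMIs (counted RNA molecules) from 500 or more genes, with mitochondrial RNA making up no more than 15%. It was called endothelial with at least 5 UMIs of the 4 genes together, at least 2 of them seen, and no UMI of Ptprc (CD45, the leukocyte surface marker). The rule found 535 endothelial cells among 51795 kept barcodes. CD40 held 224 of them, IgG 2 held 126, UT held 73, BP 1 held 66, BPI held 26, IgG 1 held 12 and BP 2 held 8, so 489 came from the first 4. The cells were chosen by their measured UMIs of these 4 genes and of Ptprc, so the levels of those genes are no result.

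NSCG-mCherry is a mouse glioblastoma line that carries EGFRvIII and lacks Arf/Ink4a. It was grown in the brains of C57BL/6 mice aged 7 to 10 weeks and labelled WT, and whole tumours were digested with enzymes at about day 14. The 1 UT library came from untreated mice and the 2 IgG libraries from mice given IgG2b isotype control at 10 mg/kg. The 2 BP libraries came from mice given B20, an antibody to VEGF, at 5 mg/kg with anti-PD-L1 at 10 mg/kg every 3 days from day 6 to 7. BPI added the PI3K inhibitor IPI-145 at 10 mg/kg by daily gavage, and CD40 stands for an agonist antibody to CD40 at 100 µg per dose, 2 doses 5 days apart. Some IgG mice had a gavage control and some CD40 mice a dendritic cell vaccine; which libraries this touches is not given in the sources used here. Each library pooled tumours of at least 2 mice and counts as 1 replicate, so spread between mice could not be measured, and UT, BPI and CD40 have no replicate. The libraries held 68997476 to 186793886 UMIs in all. IgG 1, BP 2 and BPI have consecutive library names, as have CD40 and IgG 2, while UT and BP 1 stand alone; what these names stand for is not given. The name sets cannot be told apart from group for UT, nor for BP 1 against IgG 2, whereas CD40 and IgG 2 share a set. The deposited barcode list of UT held 713553 barcodes, against 1487060 to 2310016 in the other 6 libraries, and a difference in chemistry cannot be told apart from treatment in UT.

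Brain vessels differ from those of most organs by a blood-brain barrier: capillary endothelial cells are sealed by tight junctions and carry transporters for nutrients. Arterial, capillary and venous cells form a gradient along the vessel, and venous cells are the usual place where leukocytes leave the blood. During sprouting, tip cells lead a new branch towards VEGF, which signals through Kdr (VEGFR2). Endothelial cells also respond to interferons, with antigen presentation genes and with chemokines that attract T cells.

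The label was checked on 13 other endothelial genes, among them Kdr, Tek, Tie1, Erg and Emcn. At least 5 of the 13 were seen in 465 of the 535 cells, and the library medians were 7.5 to 12 genes against 0 or 1 in all other kept barcodes. BP 1 departed from the label: only 37 of its 66 cells had 5 of these genes, against 208 of 224 in CD40, 118 of 126 in IgG 2 and 62 of 73 in UT. At least 2 of 11 leukocyte genes (such as Tyrobp, C1qa and Lyz2) were seen in 35 of 66 BP 1 cells and in 28 of 73 UT cells, against 3 of 126 in IgG 2 and 15 of 224 in CD40. At least 2 of 6 tumour genes (such as Olig1 and Sox2) were seen in 29 BP 1 cells, 26 UT cells, 24 IgG 2 cells and 43 CD40 cells. Gene levels and state shares below are therefore mostly given for 351 strict cells too, chosen after seeing the data, with 5 or more of the 13 endothelial genes and fewer than 2 of each of the other lists. These were 164 cells in CD40, 95 in IgG 2, 34 in UT, 20 in BPI, 19 in BP 1, 12 in IgG 1 and 7 in BP 2. The cells left out had more UMIs than the strict cells in the 4 large libraries, with a median of 23120 against 5762 in BP 1 and 28512 against 5612 in UT, but fewer in BPI (1557.5 against 5178) and BP 2 (1137 against 3107). Doublet calling marked 71 of the 535 cells, and 184 had 2 or more genes of mural cells (pericytes and smooth muscle, which wrap the vessels). At the edge of the rule, 28 cells had exactly 5 marker UMIs and 35 barcodes with 4 fell just outside; 13 of the 28 and 17 of the 35 were in BP 1. No barcode was shared between libraries among these cells.

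Outside the gene lists used here, the genes set highest above the rest of each tumour included the adhesion receptors Adgrl4 and Adgrf5. Over the 4 large libraries the median ratio to all other kept barcodes was 197 for Adgrl4, 185 for Adgrf5, 163 for Cyyr1, 160 for Tmem252 and 135 for Clec14a. These ratios describe all cells of the rule and carry no test.

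Endothelial cells made up 2.69% of kept barcodes in CD40 (95% Clopper-Pearson interval 2.35 to 3.06), 1.57% in IgG 2 (1.31 to 1.87), 1.30% in UT (1.02 to 1.63) and 0.626% in BP 1 (0.485 to 0.796). BPI had 0.370% (0.242 to 0.541), IgG 1 had 0.192% (0.0991 to 0.335) and BP 2 had 0.133% (0.0575 to 0.262). The 2 IgG libraries thus differed from each other by more than the BP libraries did. The BP mean of 0.380% ± 0.349 (SD, n = 2) was below the IgG mean of 0.883% ± 0.977 (SD, n = 2) by less than the SD of IgG but more than that of BP. The two-sided exact permutation p was 0.667, where 0.333 is the smallest p this design allows. Over barcodes without Ptprc UMIs alone, the shares were 3.24% in CD40, 1.76% in IgG 2, 1.67% in UT, 1.23% in BP 1, 0.502% in BPI, 0.202% in IgG 1 and 0.153% in BP 2, so that of BP 1 was the most changed. Strict cells made up 1.97% of kept barcodes in CD40, 1.19% in IgG 2, 0.604% in UT, 0.284% in BPI, 0.192% in IgG 1, 0.180% in BP 1 and 0.116% in BP 2. Intervals here and below cover counting error only.

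**Figure D1:**
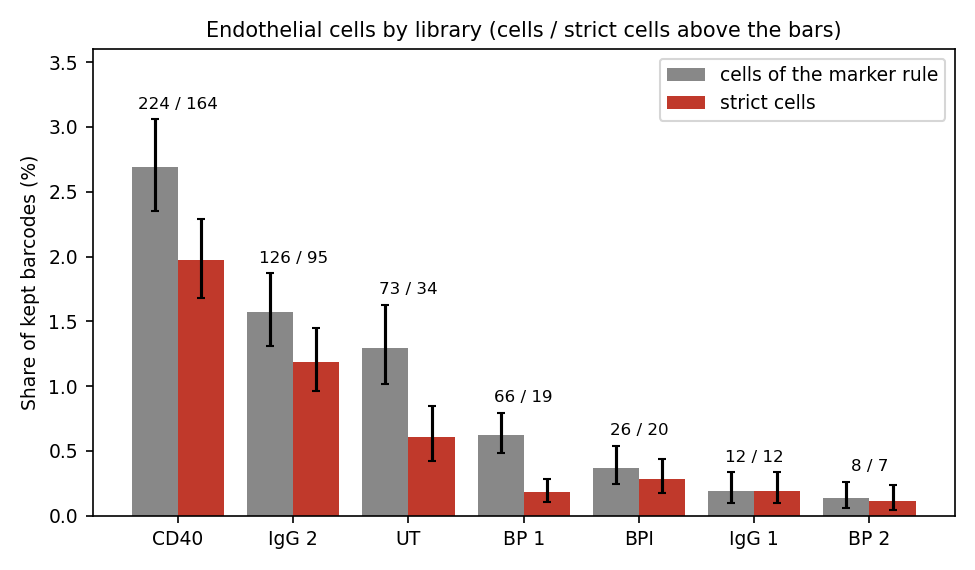
Share of kept barcodes (%) that were endothelial by the marker rule (grey) and strict endothelial cells (red) in each library, with 95% Clopper-Pearson intervals and the numbers of cells above the bars. CD40 had the highest share at 2.69% and BP 2 the lowest at 0.133%; BP 1 kept the smallest part of its cells, 19 of 66, under the strict rule.

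Interferon response genes and MHC genes were higher in the endothelial cells of UT, BP 1 and BPI than in those of IgG 2 and CD40. Levels are CPM, UMIs of a gene scaled to a common total, over the summed cells of a library. The 20 genes of the interferon response list summed in strict cells to 14458 CPM in UT, 14786 in BP 1 and 14199 in BPI, against 2910 in IgG 2 and 2302 in CD40. IgG 1, at 7360, and BP 2, at 4226, lay between. In leukocytes, barcodes with at least 2 Ptprc UMIs, the list summed to 15680 CPM in UT, 6992 in BP 1 and 11225 in BPI. There it was 1231 in IgG 2 and 1206 in CD40, with 4904 in IgG 1 and 7741 in BP 2. The difference was thus not particular to endothelial cells. All 20 genes were at least 2-fold higher in UT than in IgG 2 in the cells of the rule, as were all 20 in BP 1, while in CD40 0 of 20 were higher and 4 lower. Of all genes with at least 10 UMIs in a pair of libraries, 13.8% were 2-fold higher in UT, 15.3% in BP 1 and 8.03% in CD40, and 1.68% were lower in CD40. In strict cells the counts higher were 20, 19 and 0 of 20, where 8.11%, 16.8% and 8.2% of all genes were higher. In CD40 3 of 20 were lower there, against 1.69% of all genes. Free RNA, which enters droplets along with cells, also held Gbp2 of this list. It stood there at 462 CPM in BP 1, 270 in UT and 136 in BPI, against 15.3 in IgG 2 and 17.1 in CD40. Scaled by leukocyte genes, free RNA made up at most a fraction of 0.411 of BP 1 cells of the rule and 0.497 in BPI. The fraction was 0.0755 in UT, 0.0277 in IgG 2 and 0.0183 in CD40. Shares of single interferon and class I genes are not given here.

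**Figure D2:**
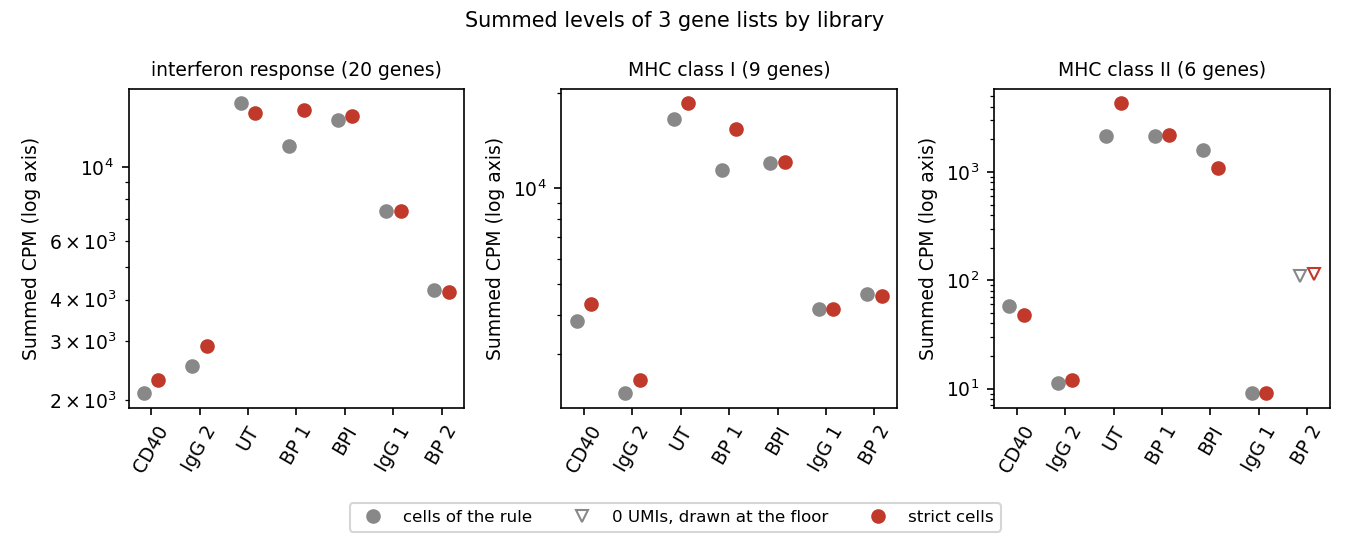
Summed CPM (log axis) of the interferon response, MHC class I and MHC class II lists in each library, for cells of the rule (grey) and strict cells (red); a triangle marks 0 UMIs, drawn at the level of 3 counts. UT, BP 1 and BPI are the top 3 libraries in each panel; class II was 4282 CPM in strict UT cells and 12 in IgG 2.

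Single genes were tested with edgeR's quasi-likelihood test on the 7 summed profiles, in which UT, BPI and CD40 are assumed to vary as the IgG and BP pairs do. Against IgG, 2.39% of 12448 genes were called higher in UT at an adjusted p under 0.05 and 0.619% lower. The values were 2.52% and 0.9% in BP, 0.731% and 0.0321% in BPI, and 0.0241% and 0.0161% in CD40. Of the 20 interferon genes, 13 rose in UT, 7 in BP, 8 in BPI and 0 in CD40. In strict cells, where 6390 genes were tested, 5 rose in UT, 4 in BP and 3 in BPI. There, 0.704% of all genes were called higher in UT, 0.485% in BP, 0.344% in BPI and 0% in CD40, and 0.0939%, 0.172%, 0.0156% and 0% were called lower. At an unadjusted p under 0.05, 64 genes passed for CD40 in strict cells. The higher calls of BP rest on BP 1: without it edgeR called 2 genes higher and 37 lower, against 314 and 112 with both libraries, and in strict cells it called 0 against 42, with 950 at an unadjusted p under 0.05. Without IgG 1, which has 12 cells, no gene was called in strict cells for any group, although 263 passed an unadjusted 0.05 in UT, 269 in BP, 171 in BPI and 20 in CD40. DESeq2 called far fewer genes on the cells of the rule: 14 in UT, 5 in BP, 3 in BPI and 0 in CD40, with 18 CD40 genes at an unadjusted p under 0.05.

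Gbp2, a guanylate-binding protein induced by interferon, stood in strict cells at 618 CPM in UT, 908 in BP 1, 346 in BP 2 and 286 in BPI, against 31.8 in IgG 1, 30.8 in IgG 2 and 38.3 in CD40. The 4 libraries of the first kind did not overlap with the other 3, and how many of all genes part the libraries so was not counted. The log2 fold change of Gbp2 over IgG in strict cells was 4.38 ± 0.67 (SE) in UT, 4.28 ± 0.63 in BP and 3.36 ± 0.69 in BPI, with edgeR adjusted p of 0.000993, 0.00138 and 0.0325. Without BP 1 the BP value was 2.79, with an adjusted p of 0.112. DESeq2 on the cells of the rule also called Gbp2 in UT and BP, at adjusted p of 0.0163 and 0.000499. Igtp, an immunity-related GTPase, had 390 CPM in UT, 330 in BP 1 and 207 in BPI against 13.6 in IgG 1, 9.19 in IgG 2, 11.9 in CD40 and 38.4 (1 UMI) in BP 2. It rose by a log2 fold change of 5.33 ± 0.69 in UT, 4.43 ± 0.67 in BP and 4.51 ± 0.73 in BPI, with edgeR adjusted p of 0.000203, 0.00143 and 0.00413, and without BP 1 the BP value was 1.25 (0.782). Isg15, a ubiquitin-like protein of the antiviral response, was less clear cut, at 1078 CPM in UT, 1023 in BPI and 913 in BP 1 but also 750 in IgG 1, against 346 in BP 2, 182 in IgG 2 and 74.5 in CD40. It did not pass the test in any group. Seen per cell, with every cell thinned at random to 1000 UMIs, strict cells held a median of 8 of the 20 genes in BP 1 and 5.5 in UT and in BPI. The median was 3.5 in IgG 1, 3 in BP 2, 2 in CD40 and 1 in IgG 2. No strict cell of UT, BP 1 or BPI lacked all 20 genes, nor did any of the 12 in IgG 1, whereas 18 of 95 in IgG 2, 22 of 164 in CD40 and 1 of 7 in BP 2 did.

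MHC class I genes, which display peptides to CD8 T cells, were also highest in UT, BP 1 and BPI. The 9 genes summed in strict cells to 18528 CPM in UT, 15376 in BP 1 and 12116 in BPI, against 4572 in BP 2, 4327 in CD40, 4171 in IgG 1 and 2490 in IgG 2. In leukocytes they summed to 25198.5 CPM in UT, 12253 in BP 1 and 10807 in BPI. Leukocytes had 9204 CPM in BP 2, 5382 in CD40, 4884 in IgG 1 and 3330 in IgG 2, so this was not particular to endothelial cells either. Among endothelial cells all 9 were 2-fold higher than in IgG 2 in UT and BP 1, in the cells of the rule and in strict cells, and 0 of 9 in CD40. In strict CD40 cells the median log2 ratio of the list was 0.59, against 0.10 over all genes. In strict cells H2-K1, a class I heavy chain, had 3039 CPM in UT, 3288.5 in BP 1 and 3111 in BPI against 795 in IgG 1, 483 in IgG 2, 835 in CD40 and 960 in BP 2. B2m, the shared light chain, ran from 585 CPM in IgG 2 to 6334 in UT. By edgeR 5 of 9 rose in strict UT cells: Tap1 and Tap2, the peptide transporter, Tapbp, H2-T23 and H2-Q4. The log2 fold change of Tap1 in UT was 3.30 ± 0.53 (SE; edgeR adjusted p of 0.00169), and in BP it was 2.26 ± 0.53 with an adjusted p of 0.0543.

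MHC class II genes, which display peptides to CD4 T cells and are usually a mark of professional antigen-presenting cells, were 2-fold higher than in IgG 2 for 6 of 6 genes in UT and BP 1 in the cells of the rule and for 4 of 4 measured in strict cells. In CD40, too, 3 of 4 measured were 2-fold higher in both sets of cells, with median log2 ratios of 2.98 and 2.05, at levels far below those of UT, BP 1 and BPI. Cd74, the invariant chain, stood in strict cells at 2795 CPM (895 UMIs) in UT, 1574 (267 UMIs) in BP 1 and 840 (138 UMIs) in BPI. It was at 31.7 CPM (77 UMIs) in CD40, 7.03 (13 UMIs) in IgG 2 and 4.54 (1 UMI) in IgG 1, and no UMI was seen in BP 2, where 3 counts would be 115 CPM. In strict cells its log2 fold change over IgG was 8.79 ± 1.31 (SE) in UT, 6.94 ± 1.21 in BP and 7.15 ± 1.27 in BPI, with edgeR adjusted p of 0.0008, 0.00605 and 0.00951; DESeq2 on the cells of the rule gave adjusted p of 0.562 or more. H2-Ab1, a class II beta chain, had 762 CPM in UT, 348 in BP 1 and 110 in BPI and no UMI in strict cells of either IgG library, which makes it at least 526-fold higher in UT, 240-fold in BP 1 and 75.6-fold in BPI than 3 counts over both IgG libraries. Of the class II list, 6 of 6 rose in UT, 5 in BP and 4 in BPI in the cells of the rule, and 3 of the 4 tested in strict cells of each (Cd74, H2-Aa and H2-Ab1).

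Free RNA, which enters droplets along with cells, also held these genes. In the cells of the rule leukocyte genes rose with them, 5 of 7 tested in UT, 6 in BP and 3 in BPI. In barcodes with 10 to 100 UMIs, Cd74 stood at 2518 CPM in UT, 1810 in BP 1 and 328 in BPI, against 86.5 in CD40 and 15.7 in IgG 2. From the leukocyte genes in the cells of the rule, free RNA could supply at most 14.5% of their Cd74 in UT, 62.5% in BP 1 and 14.6% in BPI. For Cxcl9 the same shares were 2.24%, 9.93% and 6.87%. In strict cells the 11 leukocyte genes, which chose these cells, summed to 53.1 CPM in UT, 58.9 in BP 1 and 12.2 in BPI, against 3281, 2437 and 1274 in free RNA. After thinning to 1000 UMIs, a Cd74 UMI was seen in 35.3% of strict UT cells (12 of 34; 95% interval 19.7 to 53.5), 42.1% in BP 1 (8 of 19; 20.3 to 66.5) and 40.0% in BPI (8 of 20; 19.1 to 63.9). Tumour cells of the same libraries, used as a background, showed it in 14.0%, 16.8% and 1% of 500 cells each, and T cells in 15.3%, 9.40% and 2.21%. Whether tumour cells or T cells make Cd74 themselves was not tested. T cells were picked without UMIs of the leukocyte genes C1qa, C1qb, Tyrobp and Cd79a, which leaves out barcodes with free RNA of those genes. Tumour cells were deeper than strict cells. Whether both backgrounds thus hold less free RNA per 1000 UMIs than strict cells was not tested. H2-Aa in BP 1 was not above this background, at 5.26% of strict cells (1 of 19) against 10.4% of tumour cells and 7.80% of T cells, and free RNA could supply up to 97.2% of it in the cells of the rule. In UT it was seen in 20.6% of strict cells against 7.40% and 4.12%, and in BPI in 15.0% (3 of 20) against 0.400% and 0.442%. H2-Ab1 was seen in 17.6% of strict UT cells (6 of 34, 6.76 to 34.5) against 9.60% of tumour cells and 3.53% of T cells. In BP 1 the H2-Ab1 shares were 21.1% (4 of 19, 6.05 to 45.6), 11.6% and 6.40%. Both of these intervals include the tumour cell share. The Cd74 share was 4.27% in CD40 (7 of 164) and 1.05% in IgG 2 (1 of 95), against 0.400% and 0.200% in their tumour cells and 3.70% (4 of 108) and 0 of 50 (95% interval up to 7.11%) in their T cells, so that CD40 was level with its T cells. Unthinned, at median depths of 5612, 5762 and 5178 UMIs, 64.7%, 78.9% and 50.0% of strict cells had a Cd74 UMI in UT, BP 1 and BPI, against 74.8%, 77.8% and 9.60% of tumour cells, which were deeper at 19993, 20223 and 11811 UMIs. The part of free RNA in the class II levels of BP 1 was not tested further.

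**Figure D3:**
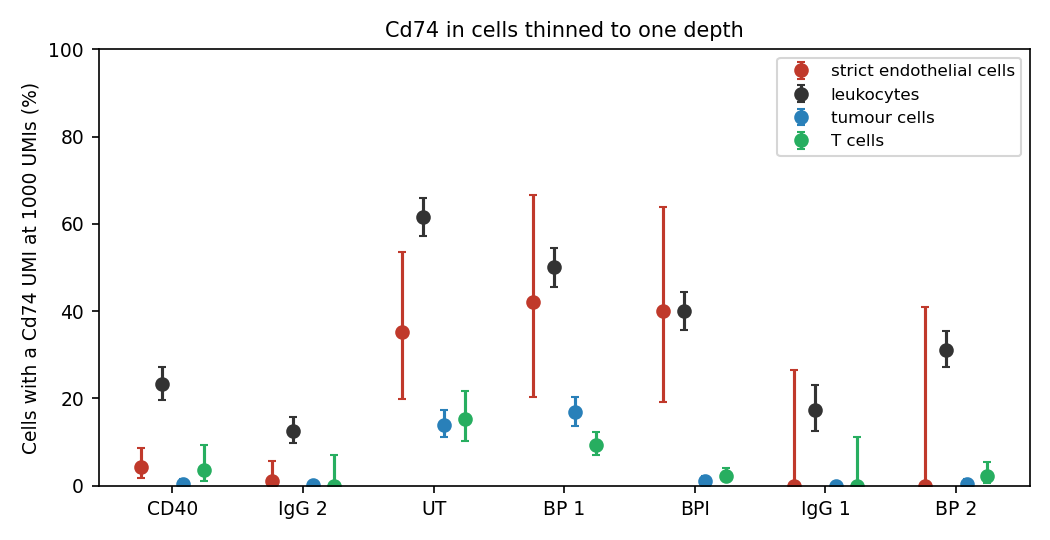
Share of cells (%) with a Cd74 UMI after thinning every cell to 1000 UMIs, in strict endothelial cells, leukocytes, tumour cells and T cells of each library, with 95% Clopper-Pearson intervals. Strict endothelial cells of UT, BP 1 and BPI sit at 35.3%, 42.1% and 40.0%, above tumour cells and T cells of the same libraries at this depth. Without thinning, the share of the deeper tumour cells was above that of strict cells in UT, near it in BP 1 and below it in BPI. IgG 2 and CD40 sit at 1.05% and 4.27%.

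Chemokines that draw T cells and NK cells through the receptor CXCR3 were also highest in UT, BP 1 and BPI. Cxcl9 had 712 CPM in strict UT cells, 495 in BP 1 and 615 in BPI, against 4.54 in IgG 1, 3.24 in IgG 2, 2.88 in CD40 and no UMI in BP 2. Its log2 fold change was 7.70 ± 1.005 (SE) in UT, 6.34 ± 0.96 in BP and 7.58 ± 1.01 in BPI, with edgeR adjusted p of 0.000203, 0.00143 and 0.000998. Cxcl9 stood at 15.1, 8.999 and 11.9 CPM in tumour cells of UT, BP 1 and BPI, but at 926, 351 and 1085 in leukocytes. After thinning, 28.8%, 13.2% and 23.4% of leukocytes had a Cxcl9 UMI, against 17.6%, 26.3% and 10.0% of strict endothelial cells (6 of 34, 5 of 19 and 2 of 20). Cxcl10 had 603, 489 and 451 CPM in strict cells of UT, BP 1 and BPI against 53.5 in IgG 2, 9.09 in IgG 1 and 7.001 in CD40, and in tumour cells it was as high, at 703, 489 and 413 CPM. Free RNA could supply at most 8.64% of Cxcl10 in UT, 39.5% in BP 1 and 39.4% in BPI. In strict cells Cxcl10 rose in UT (edgeR adjusted p of 0.0181), while in BP and BPI the adjusted p was 0.0891 and 0.0667. DESeq2 on strict cells also called Cxcl9, at adjusted p of 2.24e-07 in UT, 2.46e-05 in BP and 5.93e-06 in BPI. No BP call in strict cells passed without BP 1. For Cd74, Cxcl9, Cxcl10 and the adhesion receptor Vcam1 the fitted direction also turned, as BP 2, with 8 cells and 27166 UMIs, showed no UMI of them.

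The promoters of 3 of these genes are printed with matches to fixed letter patterns. They are the 250 bases before the start of transcription in RefSeq on GRCm38.p6, written in the direction of the gene. Control sequences of other kinds are not marked. Capitals mark a Y box (CTGATTGG or its reverse complement), an element of MHC and other promoters, and in Cxcl10 also an interferon-stimulated response element (ISRE: GAAA, any 2 bases, GAAA).
Cxcl9, minus strand, chr5:92328080-92328329: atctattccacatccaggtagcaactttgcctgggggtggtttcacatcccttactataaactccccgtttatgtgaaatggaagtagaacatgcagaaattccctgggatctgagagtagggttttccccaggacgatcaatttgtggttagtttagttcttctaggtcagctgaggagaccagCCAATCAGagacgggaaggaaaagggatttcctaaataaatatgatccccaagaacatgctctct
Cxcl10, minus strand, chr5:92348890-92349139: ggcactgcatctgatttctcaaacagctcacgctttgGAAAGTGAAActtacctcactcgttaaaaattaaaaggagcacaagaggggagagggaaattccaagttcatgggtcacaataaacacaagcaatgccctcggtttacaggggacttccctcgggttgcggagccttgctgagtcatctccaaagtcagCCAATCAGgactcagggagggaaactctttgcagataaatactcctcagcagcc
H2-Aa, minus strand, chr17:34287824-34288073: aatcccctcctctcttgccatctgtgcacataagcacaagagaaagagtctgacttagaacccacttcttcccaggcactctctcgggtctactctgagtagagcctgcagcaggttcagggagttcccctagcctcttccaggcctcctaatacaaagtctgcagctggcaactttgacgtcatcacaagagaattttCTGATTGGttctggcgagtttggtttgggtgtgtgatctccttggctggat
The Y box lay 65 to 58 bases before the start in Cxcl9, 54 to 47 in Cxcl10 and 51 to 44 in H2-Aa, and the ISRE of Cxcl10 lay 213 to 204 bases before it. Both strands were searched. The ISRE letters were found in 11 of the 17 interferon response promoters in the table, including Isg15, Ifit1, Gbp2 and Igtp, against 3.04% of 27025 promoters of that length. The Y box was found in 2 of 3 class II and 3 of 7 class I promoters, against 4.07%. A match of letters is a description and not a measured binding site.

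Vessel states were read from 10 genes each in cells thinned to 1000 UMIs, a cell counting for a state with 2 or more genes seen. Capillary genes (such as Mfsd2a, Slco1c1 and Slco1a4, transporters of the blood-brain barrier) led in every large library, with 62.1% of CD40 cells (139 of 224), 54.0% of IgG 2 cells (68 of 126), 45.2% of UT cells (33 of 73) and 34.8% of BP 1 cells (23 of 66). Venous genes (such as Nr2f2, Vwf and Ackr1) were seen in 16.5%, 13.5%, 8.22% and 18.2%, tip genes (such as Apln, Esm1 and Angpt2) in 7.14%, 15.9%, 12.3% and 1.52%, and arterial genes (such as Bmx, Gkn3 and Efnb2) in 7.59%, 4.76%, 5.48% and 1.52%. In leukocytes no state passed 1.60% in any library, and state shares of tumour cells were not counted. Some state genes were little above other kept barcodes. Median ratios over the 4 large libraries were 1.13 for Gja5, 1.47 for Hey1, 1.59 for Tfrc and 2.60 for Nr2f2 and Cxcr4. They were 338 for Slco1a4 and 93.9 for Apln. The tip gene Plvap, with a ratio of 0.819, was not particular to endothelial cells. After thinning Plvap was seen in 21.0% of tumour cells in UT, 12.0% in IgG 2 and 16.8% in BP 1. In the cells of the rule Plvap was seen in 15.1%, 9.52% and 15.2% there, and in strict cells in 8.82%, 5.26% and 0 of 19. States overlapped, with 41 of 224 CD40 cells, 18 of 126 IgG 2 cells, 9 of 73 UT cells and 10 of 66 BP 1 cells in 2 or more, of which 26, 9, 3 and 9 cells were venous with capillary. None of the 4 states was reached by 59, 34, 31 and 39 cells.

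With 1 library in each group, the state differences below have intervals over cells only, which cover counting error. The tip share was lower than in IgG 2 by 8.73 percentage points in CD40 (95% Newcombe interval from -16.6 to -1.96, CD40 minus IgG 2) and by 14.4 points in BP 1 (from -21.8 to -5.87). Without thinning, where deeper cells show more genes, these differences were -10.7 and -3.68 points. The UT minus IgG 2 difference of -3.54 points (-12.9 to 7.34) was within counting error and turned to 8.32 without thinning. Other differences within counting error also turned sign without thinning, namely arterial UT (0.718 to -12.9), venous CD40 (3.03 to -10.5), venous BP 1 (4.69 to -2.74) and capillary CD40 (8.09 to -5.75). In strict cells the tip share was 7.32% in CD40 (12 of 164) and 17.9% in IgG 2 (17 of 95), with 17.6% in UT (6 of 34) and 5.26% in BP 1 (1 of 19). The capillary share of BP 1 turned over: it was 19.1 points below IgG 2 in the cells of the rule (-32.5 to -4.27) but 84.2% (16 of 19) against 58.9% (56 of 95) in strict cells, where cells with few endothelial genes are left out by construction. Strict capillary shares were 72.6% in CD40 (119 of 164) and 67.6% in UT (23 of 34). Strict venous shares were 31.6% in BP 1 (6 of 19), 16.5% in CD40, 13.7% in IgG 2 and 8.82% in UT (3 of 34). All 6 venous cells of BP 1 also scored as capillary, as did 22 of 27 in CD40, 8 of 13 in IgG 2 and 2 of 3 in UT. Strict arterial shares were 8.54% in CD40 (14 of 164), 5.26% in IgG 2 (5 of 95), 2.94% in UT (1 of 34) and 0 of 19 in BP 1. Class II genes were not bound to one state: among strict capillary cells 7 of 23 in UT and 7 of 16 in BP 1 had a class II UMI, and among the other cells 6 of 11 and 3 of 3 did. The small libraries had 3 tip cells of 12 in IgG 1, 0 of 8 in BP 2 and 1 of 26 in BPI.

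**Figure D4:**
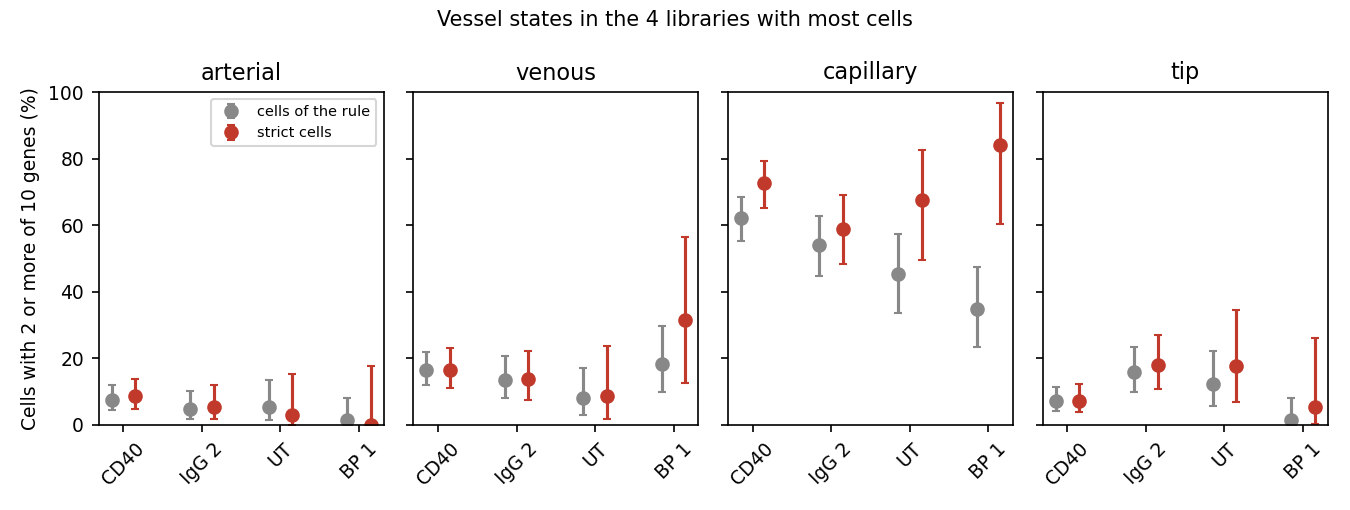
Share of cells (%) with 2 or more of 10 arterial, venous, capillary or tip genes after thinning to 1000 UMIs, in the 4 largest libraries, for cells of the rule (grey) and strict cells (red), with 95% Clopper-Pearson intervals. The tip share is highest in IgG 2 among cells of the rule (15.9%) and lowest in BP 1 (1.52%), and the capillary share of BP 1 moves from 34.8% to 84.2% in strict cells.

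Tip genes and the VEGF pathway bear on the treatment, since B20 binds VEGF. In the cells of the rule 7 of 10 tip genes were at least 2-fold lower in BP 1 than in IgG 2, 4 in UT and 1 in CD40, where 10.2%, 12.5% and 1.68% of all genes were lower. In the same cells 12 of 15 pan-endothelial genes were 2-fold lower in BP 1 and 6 of 15 in UT, with median log2 ratios of -1.41 and -0.92 against -1.49 and -0.64 for the tip genes, so general endothelial genes moved with them. In strict cells 5 of 10 were lower in BP 1, 2 in UT and 0 in CD40, where 10.9%, 13.1% and 1.69% of all genes were lower. By edgeR Apln, Esm1, Kcne3, Nid2 and Trp53i11 fell in BP in the cells of the rule, where the median log2 fold change was -1.72 for the tip list and -1.31 for the pan-endothelial list, of which 0 of 15 passed. Esm1 also fell in UT, which had no B20. Of all genes, 0.9% were called lower in BP and 0.619% in UT. No tip gene passed in strict cells. Apln, the ligand of the apelin receptor and a tip cell marker, had 253 CPM in strict UT cells, 304 in IgG 1, 260 in IgG 2, 276 in CD40, 171 in BP 1, 110 in BPI and no UMI in BP 2, where 3 counts would be 115 CPM. The 3 B20-treated libraries were thus the lowest for this 1 tip gene, and how many of all genes rank so was not counted. For Apln the log2 fold change of BP over IgG was -1.28 ± 0.61 (SE; edgeR adjusted p of 0.488) in strict cells, against -3.59 ± 0.69 (adjusted p of 4.75e-05) in the cells of the rule. Esm1, a secreted proteoglycan induced by VEGF, was seen at 63.3 CPM in IgG 2 and 67.5 in CD40, at 12.2 in BPI and 5.89 in BP 1, and had no UMI in UT, IgG 1 and BP 2. Angpt2 had 183 CPM in BP 1, above 125 in IgG 2 and 119 in CD40.

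Kdr, the main VEGF receptor, had 381 CPM in UT, 568 in IgG 1, 649 in IgG 2, 507 in BP 1, 845 in BP 2, 341 in BPI and 710 in CD40 in strict cells (Kdr is among the 13 genes that chose them), so BP and IgG libraries overlapped. Of the VEGF and angiopoietin list, Aplnr, the apelin receptor, had 172 CPM in IgG 2 and 164 in IgG 1 against 84.4 in CD40, 74.96 in UT, 42.6 in BPI and 23.6 in BP 1, and 307 in BP 2. In the cells of the rule Aplnr and Flt4 fell and Vegfa rose in BP, 3 of 14 genes, and no gene of the list passed in strict cells. Of all genes, edgeR called 2.52% higher and 0.9% lower in BP in the cells of the rule. Vegfa, the ligand, had no UMI in strict cells of UT, BP 1, BP 2, BPI and IgG 1.

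Venous genes and genes of leukocyte entry were 2-fold higher more often than lower in BP 1 and UT. In strict cells 7 of 10 venous genes were 2-fold higher in BP 1 than in IgG 2, 4 in UT and 3 in CD40, where 16.8%, 8.11% and 8.2% of all genes were higher, and 2, 0 and 0 were lower. In the cells of the rule 4, 4 and 3 were higher (of all genes 15.3%, 13.8% and 8.03%) and 2, 1 and 0 lower. Of 10 leukocyte entry genes measured in strict cells, 5 were 2-fold higher in BP 1, 3 in UT and 0 in CD40, and 1 was lower in each. Of 12 measured in the cells of the rule, 7, 5 and 3 were higher and 4, 2 and 1 lower. Of all genes, 10.2%, 12.5% and 1.68% were lower in BP 1, UT and CD40 in those cells. In strict cells 10.9%, 13.1% and 1.69% were. Vwf, the clotting factor stored by venous endothelium, had 1279 CPM in strict BP 1 cells against 377 in BPI, 303 in CD40, 209 in UT, 196 in IgG 2, 195 in IgG 1 and 154 in BP 2, and it did not pass in BP, whose 2 libraries lay on either side of IgG. Vcam1, the adhesion receptor for lymphocytes, had 348 CPM in BP 1, 183 in BPI, 119 in UT, 84.0 in CD40, 39.5 in IgG 2 and 27.3 in IgG 1, and no UMI in BP 2. In the cells of the rule it rose in BP by a log2 fold change of 2.07 ± 0.56 (SE; edgeR adjusted p of 0.0109) and in BPI by 2.76 ± 0.66 (0.005), but the adjusted p was 0.0582 and 0.282 in strict cells. Ackr1, a chemokine carrier of venules, had 454 CPM in BP 1, 341 in BPI, 328 in UT, 81.8 in IgG 1, 58.1 in CD40 and 26.5 in IgG 2, and no UMI in BP 2. It rose in UT (edgeR adjusted p of 0.0498) and BPI (0.00158) in the cells of the rule, with 0.134 and 0.186 in strict cells. Slc38a5, an amino acid transporter of veins, went the other way, with 11.8 CPM in BP 1 and 200 in UT against 265 in IgG 2, 436 in IgG 1 and 461 in BP 2; it fell in UT in the cells of the rule (edgeR adjusted p of 0.0376) and not in strict cells (0.998). Sele, E-selectin, was at 40.9 CPM or less in all libraries, and Glycam1, Chst4, Fut7 and Madcam1, genes of high endothelial venules, were at 3.12 CPM or less in strict cells, although Glycam1 rose in UT and BP in the cells of the rule.

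**Figure D5:**
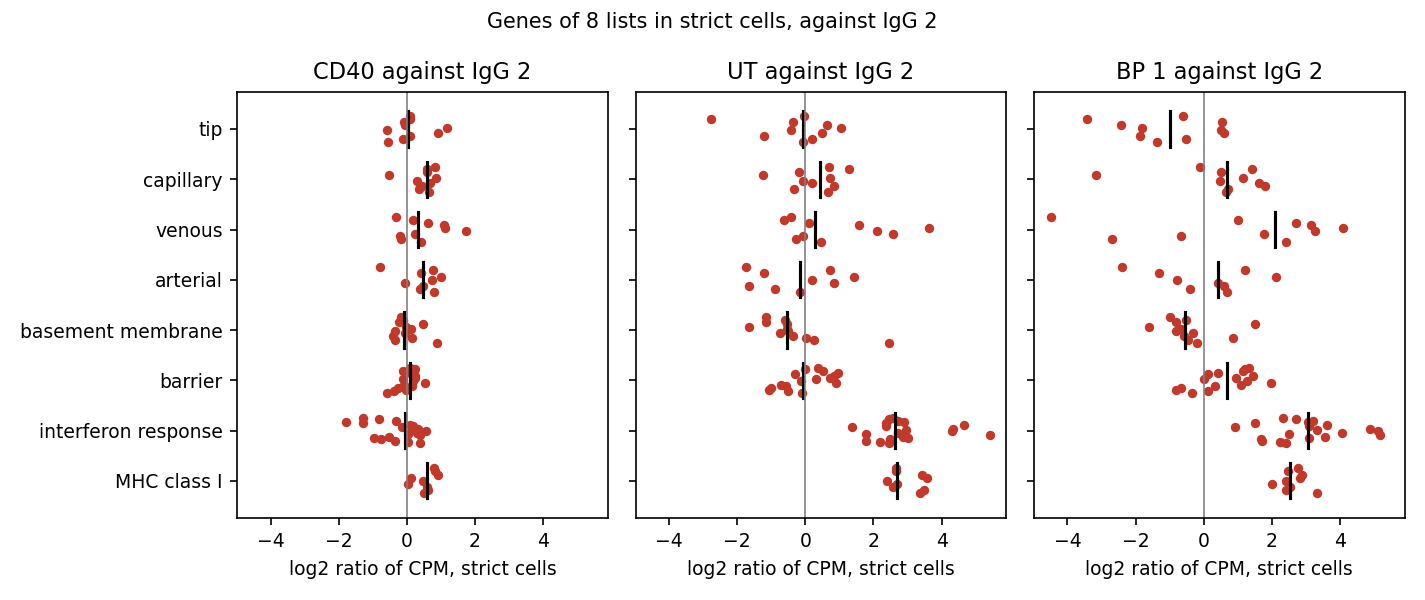
Log2 ratio of CPM in strict cells of CD40, UT and BP 1 to strict cells of IgG 2, 1 point per gene with at least 10 UMIs in the pair, a bar at the median of each of 8 lists. Interferon response and MHC class I genes lie right of 0 in UT (medians 2.64 and 2.69) and BP 1 (3.06 and 2.54). In CD40 the interferon median is -0.06 and the class I median 0.59, against 0.10 over all genes.

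Medians of the lists are read against a median log2 ratio over all genes of 0.12 in BP 1, 0.10 in CD40 and -0.05 in UT in strict cells, and 0.20, 0.08 and 0.04 in the cells of the rule. Barrier genes had medians of 0.68 in BP 1, 0.08 in CD40 and -0.05 in UT in strict cells, with 7 of 16 genes 2-fold higher in BP 1, where 16.8% of all genes were, and 0 lower. In the cells of the rule the direction in BP 1 was the other way, with a median of -0.85 and 6 of 16 genes 2-fold lower (10.2% of all genes) and 0 higher; in UT the median was -0.86, with 6 lower (12.5%). Slc2a1, the glucose transporter of the barrier, had in strict cells 1491 CPM in BP 1 and 987 in UT against 545 in IgG 2, 643 in CD40 and 309 in IgG 1. Among capillary genes Slco1c1, a thyroid hormone transporter, had 1898 CPM in BP 1 and 2305 in BP 2 against 615 in IgG 2 and 300 in IgG 1, with 981 in CD40, 706 in UT and 651 in BPI. Rgcc, a regulator of the cell cycle, had 47.1 CPM in BP 1 and 154 in BP 2 against 424 in IgG 2 and 350 in IgG 1, with a log2 fold change of -2.61 ± 0.62 (SE; edgeR adjusted p of 0.0579) in strict cells; it fell in the cells of the rule (-3.34 ± 0.75, 0.00102). No barrier gene passed in any group.

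Genes of the basement membrane, the matrix sheet around vessels, were lower in the cells of the rule in UT and BP 1, with 8 of 12 at least 2-fold below IgG 2 in each and 0 in CD40, where 12.5%, 10.2% and 1.68% of all genes were lower in UT, BP 1 and CD40. Pan-endothelial genes (12 of 15 lower in BP 1, 6 of 15 in UT) and mural cell genes (8 of 10 and 5 of 10) moved with them in these cells; their part in the result was not tested. In strict cells 3 of 12 were 2-fold lower in UT and 1 of 12 in BP 1, where 13.1% and 10.9% of all genes were, so the BP 1 count was near the background. No gene of the list passed edgeR's test in any group. Mural cell genes summed in strict cells to 3919 CPM in BP 2, 2865 in CD40, 2218 in IgG 2, 1456 in BP 1, 818 in UT, 761 in BPI and 13.6 in IgG 1. There, 5 of 10 were 2-fold lower in BP 1 than in IgG 2 and 6 of 10 in UT. Col4a1, a collagen chain of that sheet, had 2243 CPM in strict cells of IgG 2, 2008 in CD40 and 1631 in IgG 1 against 1137 in BP 1, 1003 in UT, 768 in BP 2 and 615 in BPI. The log2 fold change of BP over IgG was -1.18 ± 0.66 (SE) with an edgeR adjusted p of 0.588. Lamb1, a laminin chain, had 282 CPM in IgG 1, 234 in IgG 2 and 230 in CD40 against 154 in BP 2, 91.3 in BPI, 76.6 in BP 1 and 74.96 in UT.

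Cell cycle genes were low in strict cells of BP 1, where the 12 genes summed to 242 CPM, against 615 in BP 2, 749 in BPI, 1209 in UT, 1328 in IgG 2, 1823 in CD40 and 2980.5 in IgG 1. Top2a, a topoisomerase of dividing cells, had 11.8 CPM (2 UMIs) in BP 1 and 38.4 (1 UMI) in BP 2 against 495 in IgG 1 and 111 in IgG 2. Top2a, Birc5 and Ube2c fell in BP in strict cells, 3 of 11 tested, but in the cells of the rule, among which BP 1 holds 29 with tumour genes, none of the 12 fell and Top2a had 622 CPM in BP 1.

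Among other genes named by their size of change, Ubd, a ubiquitin-like modifier induced by interferon and TNF, had no UMI in either IgG library, CD40 or BP 2. It had 1986 CPM in strict UT cells, 925 in BP 1 and 554 in BPI, at least 1370-fold, 638-fold and 382-fold above 3 counts over both IgG libraries. Serpina3g, a protease inhibitor, had 365 CPM in UT, 831 in BP 1 and 286 in BPI against 2.16 in IgG 2, 1.24 in CD40 and no UMI in IgG 1 and BP 2. Zbp1, a sensor of nucleic acids, had 372, 306 and 365 CPM in UT, BP 1 and BPI against 76.8 (2 UMIs) in BP 2, 72.7 in IgG 1, 8.11 in IgG 2 and 7.00 in CD40. Tumour cells of UT, BP 1 and BPI had 584, 221 and 172 CPM of Zbp1, and leukocytes 658, 209 and 402. Free RNA could supply at most 9.21%, 30.3% and 31.6% of Zbp1 there in the cells of the rule. Cp, ceruloplasmin, was the one gene that met the naming rule for a rise in BP, with both BP libraries above both IgG libraries, at 383 CPM in BP 1 and 269 in BP 2 against 54.5 in IgG 1 and 78.4 in IgG 2 (log2 fold change 2.15 in strict cells, edgeR adjusted p of 0.0458). Cp was not particular to BP: strict cells of UT, CD40 and BPI also lay above both IgG libraries, at 137, 187 and 237 CPM. Kcnq1, a potassium channel, and Clec1a fell in BP in the cells of the rule (edgeR adjusted p of 0.00049 and 0.000939), as did Cacna1e, a calcium channel (0.00565). Kcnq1 and Cacna1e also fell in UT, which had no B20, with log2 fold changes of -2.45 and -2.80 (edgeR adjusted p of 0.0112 and 0.00768). Clec1a did not pass in UT (0.123). In strict cells Cacna1e had 112 CPM in BP 1 and no UMI in BP 2 against 159 in IgG 1 and 53.5 in IgG 2, so that BP 1 lay between the IgG libraries. In strict cells Clec1a had 35.4 CPM in BP 1 and 38.4 (1 UMI) in BP 2 against 150 in IgG 1 and 112 in IgG 2. Kcnq1 had 58.9 CPM in strict cells of BP 1 and 76.8 in BP 2 against 223 in IgG 1 and 86.5 in IgG 2. Nts, at 161 CPM in BP 1 cells of the rule, had no UMI in strict cells there.

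Single libraries also differed in genes that endothelium does not usually make. Ttr, the carrier of thyroid hormone made by the choroid plexus, had 7061 CPM in strict CD40 cells and 4796 in IgG 2 and at most 6.09 elsewhere, and Enpp2, another choroid plexus gene, had 1002 and 558 CPM there, with 289 in BP 1. Lcn2 and Trpm3, a channel of the choroid plexus, were among the 3 genes that rose in CD40 in the cells of the rule, with edgeR adjusted p of 0.0117 and 0.0406. In strict cells their adjusted p was 0.448 and 0.459. Hbb-bs, a haemoglobin chain of red cells, was seen at most at 0.824 CPM outside UT, which had 3686 CPM in strict cells. UT also had no UMI of Xist but 59.3 CPM of Ddx3y, a gene of the Y chromosome. Strict cells of the other 6 libraries had 346 to 704 CPM of Xist and at most 3.29 of Ddx3y. The hosts' sex is not given in the sources used here, and in UT it cannot be told apart from treatment; its part in the results was not tested.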

How the data were processed

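Deposited values were UMI counts per gene and barcode of 7 droplet libraries (10x Genomics), for all barcodes. Cell Ranger 4 is named by the file headers, and Cell Ranger 7.0.1 with mm10 per the submitters' processing notes; the 2 were not reconciled. Groups came from the sample titles. Endothelial cells, gene lists and tests were chosen with earlier results of these data known; the strict cells and their alternatives were added after seeing the data.

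Counts were summed per library over the cells and tested with edgeR 4.0.16 (TMM, filterByExpr, quasi-likelihood, 5 groups, 2 residual degrees of freedom, Benjamini-Hochberg adjustment over all genes), with DESeq2 1.42.0 as an alternative (R 4.3.3). The edgeR test shares the spread over genes, so its p-values do not rest on the 2 residual degrees of freedom alone. The cells of the rule held 27166 to 4763167 UMIs per library. Tested on simulated data for BP against IgG (12448 genes), 8% of 4-fold and 93% of 16-fold changes were recovered. The 200 changed genes were drawn from those above the median level, and all genes were given the same spread. Recovery of lower genes was not tested. Fold changes between single libraries set 0 UMIs to 3 counts. Free RNA was estimated from barcodes with 10 to 100 UMIs and scaled by leukocyte genes, an upper estimate. Doublets were the highest Scrublet scores (scanpy 1.11.5), kept in the main values. Thinning drew UMIs once per cell with a fixed seed. Gene positions are GENCODE vM21 names on GRCm38. Named genes were, by rule, up to 3 per direction with the largest change among those called and alike in all libraries of both groups, up to 5 per direction per pair of libraries, and 10 by ratio to other barcodes. Replicate numbers were compared between IgG and BP (correlation of deviations -0.0045). With 2 libraries a group and 27166 UMIs in BP 2, this cannot decide whether the libraries pair, and the main fit left pairing out. Some items of the lists and of the motif search are not reported here.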

Additional observations from a re-analysis of the deposited data

Results flagged for a closer look

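In BP 1, 854 of 10539 kept barcodes (8.10%, 95% Clopper-Pearson interval 7.59 to 8.64) met the endothelial marker rule but carried Ptprc UMIs, and so lie outside the comparisons above. The same count was 50 in UT, 33 in CD40, 7 in BP 2, 7 in BPI, 6 in IgG 2 and 0 in IgG 1. Of the 854 barcodes, 852 had at least 2 of 11 leukocyte genes, and their median was 1 of 13 endothelial genes. C1qa and Lyz2, genes of macrophages, stood at 2207 and 2548 CPM. Flt1 stood at 424 CPM, Pecam1 at 291 and Cldn5 at 68.7, but these genes chose the barcodes, so their levels are no result. What these barcodes hold was not tested.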

How the results depend on the processing

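The BP minus IgG difference in endothelial share kept its sign in every planned setting but 2: it was 3.57 percentage points with no condition on Ptprc, and leaving out 1 library gave -1.19 to 0.188, positive only without IgG replicate 2. For the counts of called genes, in the order BP, BPI, CD40 and UT, leaving out 1 library gave 39 to 495, 2 to 70, 0 to 10 and 39 to 394, and in strict cells 0 to 111, 0 to 18, 0 to 49 and 0 to 56. Without BP replicate 2, strict cells gave 33 for BP, 15 for BPI and 41 for UT, and without BP replicate 1 they gave 0 for BP, 14 for BPI and 36 for UT. Without BP replicate 1, the BP count in the cells of the rule was 39 (2 higher and 37 lower) and the UT count 142, and without IgG replicate 2 they were 46 and 39, with 2 for BPI and 1 for CD40. Strict cells gave 42, 23, 0 and 51, DESeq2 gave 5, 3, 0 and 14, DESeq2 on strict cells gave 11, 3, 0 and 19, and leaving out genes with 10% or more free RNA (507 genes tested) gave 8, 6, 0 and 9. At least 8 marker UMIs gave 61 for BPI, and no filter on low counts gave 13 for CD40. Whether the replicate numbers pair the libraries could not be decided. A fit with the replicate block called 13 genes for BP, of 9271 tested. Without BP replicate 1 the log2 fold changes of BP turned to -6.19 for Cd74, -8.52 for Cxcl10, -5.09 for Cxcl9 and -8.61 for Vcam1, and in strict cells to -5.51, -8.07, -4.60 and -7.92, since BP 2 has no UMI of these genes. The highest values with 1 library left out, in the cells of the rule, were 7.55, 4.58, 7.32 and 2.48 for the 4 genes. Differences in state share from IgG 2 without thinning were -12.9 points for arterial UT, -10.5 and -14.0 for venous CD40 and UT, -5.75 for capillary CD40, and 8.32 and -3.68 for tip UT and BP 1. In strict cells they were 17.9 for venous BP 1, 8.70 for capillary UT and 25.3 for capillary BP 1. Counts of 2-fold list genes moved in strict cells to 0 (CD40) and 3 (UT) for leukocyte entry, 7 for venous BP 1, 0 (CD40) and 2 (UT) for lower tip genes, and 2 for lower VEGF genes in CD40. With the mean of each cell's CPM they moved to 1 interferon gene in CD40, 1 lower tip gene and 2 lower VEGF genes in UT, and with mural cells left out to 1 leukocyte entry gene and 0 lower VEGF genes in CD40. Where no reason is given, the cause was not tested. Depth limits BP 2 most, where 3 counts are 110 CPM.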
